A study of Mus musculus with 24 samples.

Results

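Transcript levels of 9 genes of the death receptor pathway were followed across the 24 RNA-seq libraries of a mouse small cell lung cancer (SCLC) study in which the tumor suppressor p53 could be switched back on. The genes were taken by symbol: the ligand gene Tnfsf10, the receptor genes Fas, Tnfrsf10b, Tnfrsf1a and Tnfrsf1b, the adaptor genes Fadd and Tradd, the initiator caspase gene Casp8 and its inhibitor gene Cflar. All 9 were found among the 25239 genes of the table, and 8 passed the filter for testing. Tnfsf10 did not pass it and is described by its values alone.

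Death receptors are cell surface proteins of the TNF receptor family whose inner part carries a death domain. When a ligand binds, FAS and the TRAIL receptor encoded by Tnfrsf10b gather the adaptor FADD and caspase-8, which then cleaves the executioner caspases, whereas TNF receptor 1 (Tnfrsf1a) acts first through the adaptor TRADD and can signal to NF-kappaB. c-FLIP, the product of Cflar, resembles caspase-8 and competes with it at FADD, and Fas and Tnfrsf10b are long known as direct targets of p53.

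The libraries came from 6 cell lines, each grown from an individual tumor of RP-XTR-R2 mice (Trp53 XTR/XTR, Rosa26 FlpO-ER, and floxed alleles, flox/flox, of both Rb1 and Rbl2) on a mixed B6J/129S4vJae background. Adenoviral Cre under the CMV promoter had deleted Rb1 and Rbl2 and trapped Trp53 in all 6 lines, so these alterations are shared by every group, untreated cells included, and the recombinase was not limited to a cell type. In the study 3 lines lost viability once p53 returned (Type D: 4711-1, 4711-18 and 4716-11) and 3 stayed viable (Type V: 4711-11, 4716-10 and 4716-14). Each line gave 1 library per treatment at 72 h. Cells had received vehicle (Control) or 4-hydroxytamoxifen, which releases Trp53 from the gene trap (Restored), and each of these was also given with cyclosporin A, a drug that binds cyclophilins (+ CsA). The 8 groups therefore held 3 lines each, and the 4 libraries of a line are paired. Levels are given as transcripts per 1000000 (TPM), which are scaled per transcript length, and sequencing depth is unknown because TPM holds no counts.

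As a check on the labels, Trp53 lay between 10.5 and 15.3 TPM in the 12 libraries without restoration and between 181.5 and 252.7 TPM in the 12 with it. Cdkn1a and Mdm2, known p53 targets, ran from 37.5 to 145.3 and from 59.0 to 82.2 TPM without restoration, and from 1068.3 to 2539.9 and from 554.0 to 1583.8 TPM with it. The neuroendocrine markers were mixed. Chga was listed at 0 in all 24 libraries, Calca and Neurod1 reached at most 0.105 and 0.0954 TPM, and Syp reached 1.41 TPM. Ncam1 ran from 4.46 to 27.3 TPM, while Insm1 was at 1 TPM or more in 18 libraries (highest 49.6 TPM) and Uchl1 in 15 (highest 40.9 TPM). The sum of the neuroendocrine list ran from 9.63 to 20.4 TPM in Type D Control and from 33.0 to 79.2 TPM in Type V Control, and from 5.50 to 27.1 and from 16.5 to 85.7 TPM in Restored. The pan-leukocyte gene Ptprc reached at most 0.154 TPM and Cd3e was listed at 0 throughout. Of the 7 immune genes only Cd68, a lysosomal gene of macrophages and other cells, was above 2 TPM, and the sum of the list ran from 7.97 to 11.2 TPM in Control and from 16.3 to 56.3 TPM in Restored. The 4 fibroblast genes summed to at most 1.93 TPM in Type D and to between 17.9 and 520.9 TPM in Type V, while the 4 epithelial genes summed to between 4425.1 and 11815.8 TPM in Type D and between 490.3 and 1577.0 TPM in Type V. Of these 4, Epcam was at 1 TPM or more in 8 libraries (highest 4.57 TPM), Krt8 in 20, and Cdh1 and Krt18 in all 24. The part of these markers in the results below was not tested, and in bulk RNA fewer cells of a type and less RNA per cell cannot be told apart.

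The transcripts of the ligands for FAS and the TRAIL receptor were scarce. Tnfsf10, which encodes TRAIL, was listed at 0 in 10 of the 12 Type D libraries and reached 0.0577 TPM in the other two. In Type V it ran from 0 to 0.433 TPM, so no library came near 1 TPM. Fasl, which encodes FAS ligand, and Tnf were also low, with maxima of 0.343 and 0.519 TPM. With levels this close to 0 no fold change is given for these 3 genes. Other ligand genes of the family were present: Tnfsf12, which encodes TWEAK, ran from 5.08 to 16.8 TPM in the 24 libraries, and Lta, which encodes lymphotoxin alpha, another ligand of the TNF receptors, from 0.388 to 3.88 TPM. Tnfsf15 reached 4.05 TPM and Ltb 2.87 TPM.

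Fas, the receptor gene for FAS ligand, had the largest change among the 8 genes tested. In the Type D lines 4711-1, 4711-18 and 4716-11 it stood at 2.80, 9.40 and 3.98 TPM in Control and at 52.7, 68.8 and 80.8 TPM in Restored. In the Type V lines 4711-11, 4716-10 and 4716-14 it stood at 3.99, 130.4 and 36.8 TPM in Control and at 119.7, 466.9 and 173.4 TPM in Restored. Every line was higher after restoration, by 7.32-fold to 20.3-fold in Type D and by 3.58-fold to 30.0-fold in Type V. The Type D groups did not overlap, whereas line 4716-10 already held more Fas in Control than any Type D line or line 4711-11 did in Restored. Differences between groups were tested with limma on log2(TPM + 1), a scale that understates the change of low genes, and a gene is called when its adjusted p is under 0.05 and its change at least 1 log2. In Type D Fas rose by 3.53 log2 (95% interval 1.47 to 5.60, adjusted p 0.0221). In Type V the difference was 2.88 log2 (0.81 to 4.94, adjusted p 0.0728), which missed the threshold, and with the cell line as a block, which compares libraries within lines, Fas rose in Type V as well (adjusted p 0.000112). The Type D call was lost without any 1 of the Type D lines or without Type V line 4716-14 (adjusted p up to 0.198), and it stood at 1.35e-05 with the block.

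The promoter window of Fas is printed because Fas moved most. It spans 250 bases before and 50 bases after the RefSeq start at chr19:34290409-34290708 of GRCm38.p6 on the plus strand, and capitals mark its 14 CpG dinucleotides.
Fas: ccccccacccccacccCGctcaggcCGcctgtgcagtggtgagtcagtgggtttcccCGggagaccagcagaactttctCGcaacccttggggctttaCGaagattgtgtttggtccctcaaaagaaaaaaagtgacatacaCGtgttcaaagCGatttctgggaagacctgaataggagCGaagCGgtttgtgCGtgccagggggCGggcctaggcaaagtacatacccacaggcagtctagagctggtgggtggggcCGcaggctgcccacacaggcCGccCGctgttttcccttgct
A RefSeq window was found for 7 of the 9 genes, all but Tnfrsf10b and Tradd. None of the 7 held a match to the 10-letter p53 decamer consensus or to the 10-letter NF-kappaB consensus on either strand, motifs that 8.36% and 4.51% of all 32851 windows hold. This says only that these letters are not in the windows.

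Tnfrsf10b, the TRAIL receptor gene, rose on restoration in both types. In Control it stood at 21.0, 37.8 and 22.7 TPM in the 3 Type D lines (in the order above) and at 24.9, 44.5 and 22.4 TPM in the 3 Type V lines. In Restored it stood at 84.2, 169.9 and 78.5 TPM in Type D and at 106.6, 114.2 and 70.3 TPM in Type V. All 6 Restored libraries lay above all 6 Control libraries. The rise was 3.46-fold to 4.49-fold per line in Type D (1.95 log2, SE 0.40, adjusted p 0.00248) and 2.57-fold to 4.29-fold in Type V (1.67 log2, adjusted p 0.00971), and it was called in both types. The Type V call was lost when other groups were left out of the fit (adjusted p 0.0708) and without line 4711-11 (0.143) or 4716-14 (0.0519).

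The TNF receptor genes Tnfrsf1a and Tnfrsf1b differed in direction in Type D. Tnfrsf1a, which encodes the death domain receptor, went from 181.8, 213.1 and 123.5 TPM to 255.7, 288.9 and 205.2 TPM in Type D. In Type V it went from 129.9, 250.1 and 157.1 TPM to 249.8, 423.5 and 263.4 TPM. It was higher after restoration in all 6 lines, by 1.36-fold to 1.92-fold, and the groups overlapped in both types. Without the block the differences were 0.55 log2 in Type D (adjusted p 0.265) and 0.81 log2 in Type V (adjusted p 0.0950). Within lines Tnfrsf1a rose in both types (block adjusted p 3.47e-05 and 1.06e-06).

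Tnfrsf1b encodes TNF receptor 2, which lacks a death domain. It went from 31.1, 30.7 and 35.8 TPM to 13.6, 14.7 and 16.0 TPM in the Type D lines, with no overlap between the groups. In Type V lines 4711-11 and 4716-14 it went from 17.7 and 28.0 TPM to 9.84 and 13.3 TPM, while in line 4716-10 it went from 28.8 to 56.8 TPM. The Type D lines stood at 0.437-fold to 0.479-fold of their Control, and 1 Type V line ran against the other five. In Type D the difference was -1.09 log2 (adjusted p 0.191 without the block), and within lines Tnfrsf1b fell (block adjusted p 0.0122). The Type D fall was also called without the block when line 4716-10 was left out (adjusted p 0.00656) and in a fit to the compared groups (0.0156). In Type V the difference was -0.28 log2 (adjusted p 0.846, block 0.516), and -0.90 log2 without line 4716-10.

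**Figure D1:**
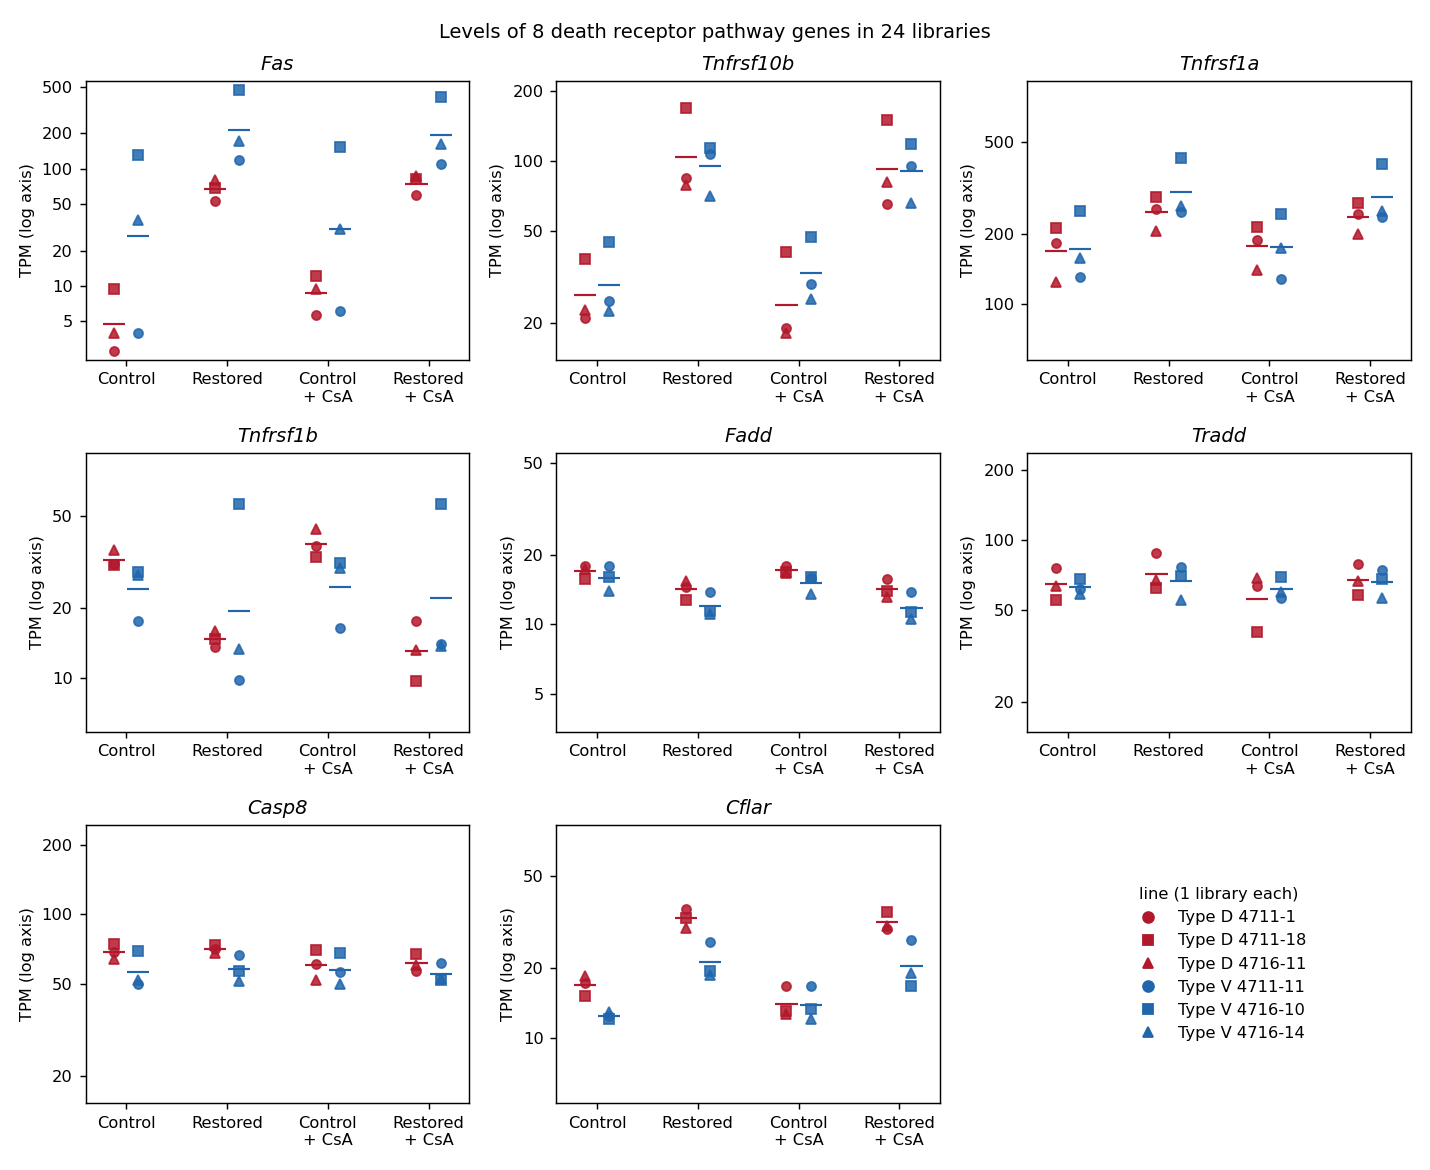
Level of 8 genes in each of the 24 libraries, in TPM on log axes, by treatment; red marks are the 3 Type D lines, blue marks the 3 Type V lines, and bars are geometric means of 3 lines. Fas, Tnfrsf10b and Cflar stand higher in the restored groups, Casp8 and Tradd stay level, and Tnfrsf1b is higher after restoration in the Type V line 4716-10 alone, at 56.8 TPM.

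The adaptor genes moved little. Fadd, whose product links FAS and the TRAIL receptor to caspase-8, ran from 14.0 to 17.9 TPM in the 6 Control libraries and from 11.1 to 15.4 TPM in the 6 Restored libraries. It was lower after restoration in all 6 lines, by 0.24 log2 in Type D (adjusted p 0.350) and by 0.37 log2 in Type V (adjusted p 0.132), and it fell in the fit with the block (0.0327 and 0.00274). Tradd, the adaptor of TNF receptor 1, ran from 55.2 to 76.1 TPM in Control and from 55.3 to 88.1 TPM in Restored. Its differences were 0.15 log2 in Type D (95% interval -0.26 to 0.57) and 0.10 log2 in Type V (-0.32 to 0.51), with adjusted p of 0.718 and 0.871 and no call with the block.

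Casp8 and Cflar, neighbours in the genome whose products share a place in the death-inducing complex, behaved differently. In Type D Casp8 measured 68.8, 74.6 and 64.0 TPM before restoration and 71.1, 73.7 and 68.4 TPM after it. The Type V lines held 50 (4711-11), 69.6 and 52 TPM before and 67.0, 57.2 and 51.7 TPM after. The differences on restoration were 0.04 log2 in each type (95% intervals -0.28 to 0.36 and -0.27 to 0.36, adjusted p 0.941 and 0.943). In Type V the lines went separate ways, with 4711-11 higher and 4716-10 lower after restoration.

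Cflar in Type D measured 17.3, 15.2 and 18.4 TPM before restoration and 36.1, 33.0 and 29.9 TPM after it. The Type V lines held 12.4, 12 and 12.9 TPM before and 25.9, 19.5 and 18.7 TPM after. Restored and Control libraries did not overlap in either type. Cflar rose by 0.92 log2 in Type D (SE 0.18, adjusted p 0.00173) and by 0.73 log2 in Type V (adjusted p 0.0125), per line 1.63-fold to 2.16-fold and 1.45-fold to 2.10-fold. Both changes passed the test and stayed under the 1 log2 needed for a call.

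The RefSeq starts of Cflar and Casp8 lie 91011 bases apart on chromosome 1, both on the plus strand. Their windows are shown side by side because the levels of these neighbours moved differently, with capitals marking CpG dinucleotides, of which the Cflar window at chr1:58711241-58711540 holds 12 and the Casp8 window at chr1:58802252-58802551 holds 5.
Cflar: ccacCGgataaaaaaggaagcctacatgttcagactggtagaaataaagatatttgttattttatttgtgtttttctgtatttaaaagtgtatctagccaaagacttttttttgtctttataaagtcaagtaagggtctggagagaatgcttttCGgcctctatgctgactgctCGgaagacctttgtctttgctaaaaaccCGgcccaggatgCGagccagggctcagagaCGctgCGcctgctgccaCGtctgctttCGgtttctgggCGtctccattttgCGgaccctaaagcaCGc
Casp8: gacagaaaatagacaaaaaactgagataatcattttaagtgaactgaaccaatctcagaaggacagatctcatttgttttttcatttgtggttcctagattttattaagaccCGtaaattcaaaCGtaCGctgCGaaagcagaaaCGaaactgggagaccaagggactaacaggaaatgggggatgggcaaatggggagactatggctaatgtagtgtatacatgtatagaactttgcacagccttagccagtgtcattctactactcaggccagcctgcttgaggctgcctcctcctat
The median over all windows is 7 CpG, with quartiles of 3 and 20. The windows of Tnfsf10, Tnfrsf1a, Tnfrsf1b and Fadd hold 6, 11, 13 and 22. Any part of CpG content in the changes was not tested.

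**Figure D2:**
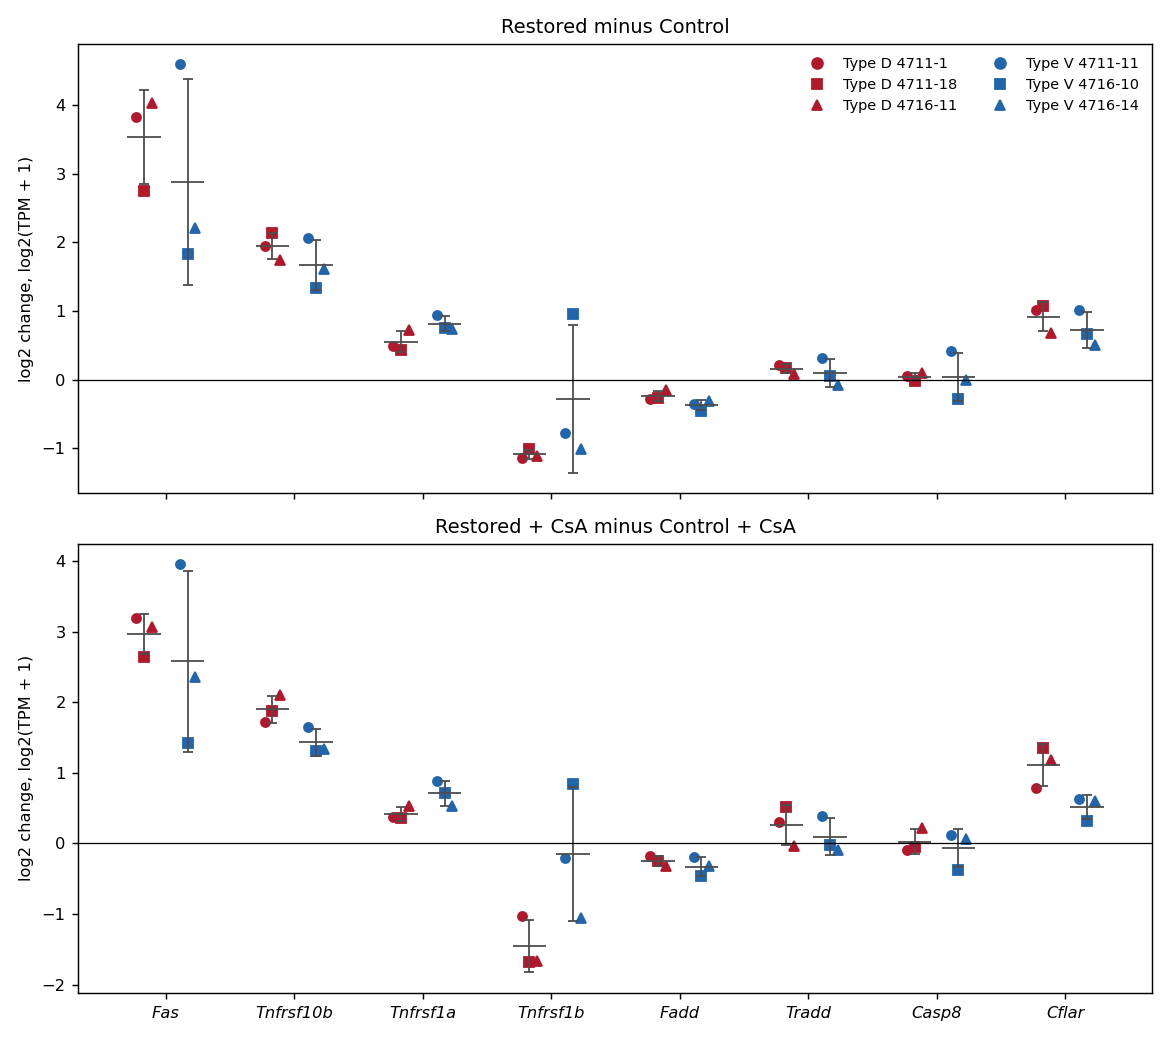
Change of each gene on restoration in every line, as the difference of log2(TPM + 1), without CsA (top) and with CsA (bottom); symbols are lines, horizontal bars the mean of 3 lines and error bars the SD. Fas, Tnfrsf10b, Tnfrsf1a and Cflar lie above 0 in all 6 lines of both panels, and Fadd lies below 0 in all of them.

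In all, restoration called 2 of the 8 tested genes in Type D (Fas and Tnfrsf10b), where 6.93% of the 14104 genes tested were called, and 1 in Type V (Tnfrsf10b), where 5.29% were. At an adjusted p under 0.05 alone it was 3 in Type D (background 12.9%) and 2 in Type V (9.95%), Cflar being added in each. With the block 6 of 8 passed in Type D and 5 of 8 in Type V, against 45.3% and 40.6% of all genes, so passing the block test was common in these data. All 3 lines moved the same way for 65.3% (Type D) and 57.7% (Type V) of all genes. Type D groups did not overlap for 5 of 8 genes (33% of all genes) and Type V groups for 3 of 8 (22.3%). The median change of the 8 was 0.35 log2 in Type D and 0.41 log2 in Type V, against 0.07 and 0.05 log2 over all genes. The study had placed Fas and Tnfrsf10b in its Module 1 and Tnfrsf1b in its Module 4 on the basis of these same libraries, so their direction here is not independent evidence.

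The restoration changes were then compared between types. Differences of the changes (Type D minus Type V) were called for 0 of the 8 genes (0.0284% of all genes) and for 0 with the block (2.44%), and 0 reached an unadjusted p under 0.05 in limma, where 3.83% of all genes did. The difference was 0.66 log2 for Fas (95% interval -2.26 to 3.58), 0.28 for Tnfrsf10b (-0.90 to 1.46), 0.19 for Cflar (-0.34 to 0.72), -0.26 for Tnfrsf1a (-1.14 to 0.62) and -0.81 for Tnfrsf1b (-2.32 to 0.71). For Casp8 it was -0.00 log2 with an interval of -0.45 to 0.45. These intervals come from the fit without the block, so they include the spread between lines and are wider than the pairing requires. Those of Casp8, Cflar, Fadd and Tradd reach at most 0.72 log2 from 0, and the others reach further. None of them shows that the types respond alike.

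Levels were compared between the types themselves in the same way. When it estimates the spread, this fit treats the libraries of a line as independent, so p-values between types may be too small. In Control 0 of the 8 genes were called (8.83% of all genes were), and at an unadjusted p under 0.05 there were 2, Fas and Cflar (27.3% of all genes). The Fas difference was -2.33 log2 for Type D against Type V (95% interval -4.39 to -0.26, adjusted p 0.131), with Type V line 4711-11 among the Type D values, and it was called without that line (-3.60 log2, adjusted p 0.00294). Cflar differed by 0.42 log2 (adjusted p 0.137) and Tnfrsf1b by 0.41 (adjusted p 0.654), and for these genes the types did not overlap, as for 31.4% of all genes. The median over all genes in this comparison was -0.12 log2, and -0.02 after median-ratio scaling.

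After restoration 0 of 8 genes were called between types (9.44% of all genes), and Cflar alone passed at an adjusted p under 0.05 (14.8%). It was higher in Type D by 0.61 log2 (95% interval 0.24 to 0.99, adjusted p 0.0272), and the call at this level was lost with the line as a random block (adjusted p 0.0821). The Restored levels of Cflar, Casp8 and Fas did not overlap between the types, as for 29.2% of all genes: Cflar and Casp8 stood higher in Type D and Fas higher in Type V. Casp8 differed by 0.28 log2 (adjusted p 0.230) and Fas by -1.67 log2 (adjusted p 0.277).

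Because caspase-8 and c-FLIP compete, the ratio of Casp8 to Cflar TPM was taken in each library, a measure chosen after the values were seen. In Control it was 3.97, 4.89 and 3.49 in Type D and 4.05, 5.81 and 4.02 in Type V. In Restored it was 1.97, 2.23 and 2.29 in Type D and 2.58, 2.93 and 2.76 in Type V. It was lower after restoration in all 6 lines, and all 3 Type D lines then lay under all 3 Type V lines. The Restored means were 2.16 ± 0.17 and 2.76 ± 0.174 (SD, n = 3 lines), with a two-sided exact permutation p of 0.1, the smallest that 3 against 3 lines allow, and 0.267 adjusted over the 8 comparisons of this ratio. The log2 change of the ratio was -0.92 ± 0.275 in Type D and -0.73 ± 0.234 in Type V (exact permutation p 0.4). A ratio of transcripts is not a ratio of proteins, and Cflar transcripts of all splice forms were counted together.

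**Figure D3:**
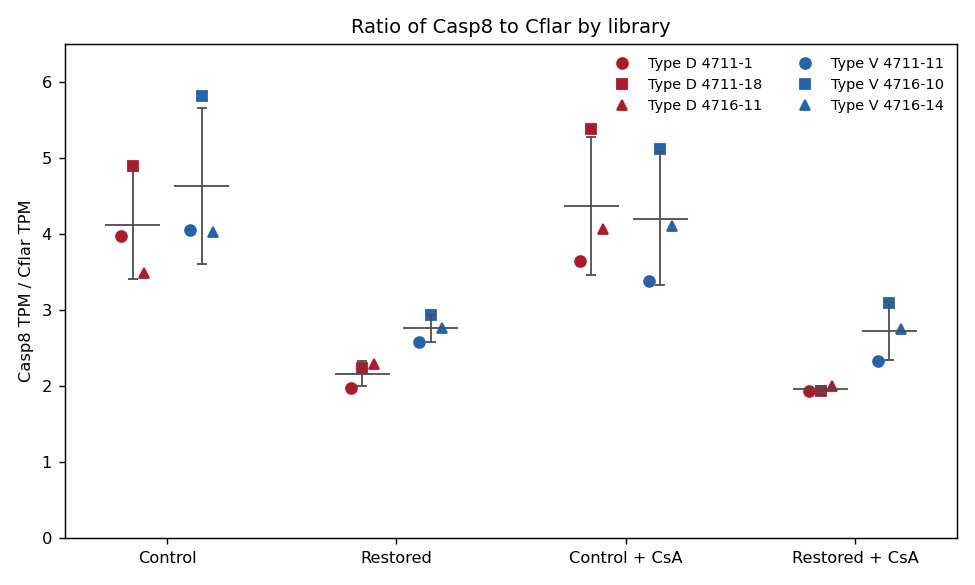
Ratio of Casp8 to Cflar TPM in each of the 24 libraries by treatment; symbols are lines, horizontal bars the mean and error bars the SD of 3 lines. The ratio lies between 3.38 and 5.81 without restoration and between 1.93 and 3.09 with it.

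The effect of CsA was asked without and with p53. With CsA alone 0 of the 8 genes were called in either type, as were 0% of all genes. In limma 0 of the 8 reached an unadjusted p under 0.05, a level that 0.808% of all genes reached in Type D and 0.383% in Type V. So few genes reached it in this fit without the block that changes within lines could be missed. With the block 0 of the 8 were called as well (0.0142% of all genes in Type D). Fas stood at 5.63, 12.1 and 9.37 TPM in Type D Control + CsA, higher than Control in all 3 lines (0.73 ± 0.368 log2, SD, n = 3, where 34.1% of all genes moved the same way in all 3 lines), and at 6.11, 152.6 and 30.6 TPM in Type V, where 2 of 3 lines were higher. The limma interval for Fas in Type D, from the fit without the block, ran from -1.33 to 2.79 log2 (adjusted p 1). That width includes the spread between lines, and the changes within lines 4711-1, 4711-18 and 4716-11 were 0.80, 0.33 and 1.06 log2. For Casp8 the interval in Type D was -0.50 to 0.13 log2 and in Type V -0.29 to 0.35 log2.

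When CsA was added to restored cells, again 0 of the 8 genes were called (Type D background 0.0142%, Type V background 0%), and 0 with the block (0.128% in Type D). None of the 8 reached an unadjusted p under 0.05 in limma, against 1.62% of those tested for Type D and 0.709% for Type V. That fit without the block includes the spread between lines, so it can miss changes within lines and this count decides little. Fas in Restored + CsA stood at 59.5, 80.9 and 85.8 TPM in Type D, slightly above Restored in all 3 lines, and at 109.6, 411.6 and 160.9 TPM in Type V, slightly below Restored in all 3. Such a shared direction over 3 lines was common here (Type D 38.6% of all genes, Type V 33.2%). Tnfrsf10b stood at 65.3, 149.9 and 80.7 TPM in Type D and at 94.7, 118.1 and 65.6 TPM in Type V. Casp8 was lower with CsA in all 3 Type D lines, at 57.0, 67.5 and 60.7 TPM, without overlap with Restored (as for 6.88% of all genes), yet the difference was -0.20 log2 with an adjusted p of 1 and of 0.492 with the block. Cflar lay between 29.6 and 35.0 TPM in Type D, a difference of -0.06 log2, and between 16.8 and 26.4 TPM in Type V, a difference of -0.05 log2.

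Restoration in the presence of CsA was measured in the other 12 libraries. In Type D 2 of 8 genes were called, Tnfrsf10b (1.90 log2, adjusted p 0.00379) and Cflar (1.11 log2, adjusted p 0.000361), where 5.41% of all genes were. In Type V Tnfrsf10b was called (1.43 log2, adjusted p 0.0308), where 4.61% were, and Cflar differed by 0.52 log2 (adjusted p 0.0882, block 0.00481). Fas differed by 2.97 log2 in Type D (adjusted p 0.0695) and 2.58 in Type V (0.129), and it rose in both with the block (8.65e-05 and 0.000343). Tnfrsf1b in Type D went from 37.2, 33.3 and 44.0 TPM to 17.7, 9.73 and 13.2 TPM, a difference of -1.46 log2 (adjusted p 0.0871), and fell with the block (0.00206). In line 4716-10 Tnfrsf1b again ran the other way, from 31.4 to 56.8 TPM. Median-ratio scaling and quantile normalization took the Cflar change in Type D to 0.98 and 0.95 log2, under the size needed for a call, and leaving out line 4711-18 took it to 0.99. The Type D call of Tnfrsf10b was lost in a fit to the compared groups (adjusted p 0.0602) and without line 4716-11 (0.0753). The Type V call of Tnfrsf10b was lost without any 1 of the Type V lines, without Type D line 4716-11 and in a fit to the compared groups (adjusted p 0.0614 to 0.208).

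The order of the 9 genes by mean level shifted with restoration. In Type D Control it ran Tnfrsf1a (172.8 TPM), Casp8 (69.1), Tradd (64.9), Tnfrsf1b (32.6), Tnfrsf10b (27.2), Cflar and Fadd (17 each), Fas (5.40) and Tnfsf10 (0). The neighbours Casp8 and Tradd, Tnfrsf1b and Tnfrsf10b, and Cflar and Fadd overlapped in their 3 libraries. In Type D Restored Tnfrsf10b (110.9 TPM) and Fas (67.4) stood in places 2 and 5 and Tnfrsf1b (14.8) in place 7, next to Fadd (14.2), and the genes in places 2 to 5 overlapped each with the next. In Type V Control Fas held place 4 with a mean of 57.1 ± 65.6 TPM (SD, n = 3), and its range overlapped its neighbours Casp8 and Tnfrsf10b. In Type V Restored it held place 2 at 253.3 ± 186.9 TPM, overlapping Tnfrsf1a at 312.2 TPM.

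The variation of each gene over the 24 libraries was divided by sums of squares of log2(TPM + 1). Restoration took 79.6% of it for Tnfrsf10b, 66.7% for Cflar, 53.1% for Fas, 50.8% for Fadd and 47.2% for Tnfrsf1a. The line within its type took 45.6% for Tnfrsf1a and 58.1% for Tradd, more than for Fas (22.3%) or Cflar (5.51%). Type itself took 27.7% for Casp8, 19.1% for Fadd and 18.8% for Fas, and restoration took 0.086% for Casp8. For Tnfrsf1b the line took 38.8%, restoration 27.0%, line by restoration 16.6% and type by restoration 13.7%. CsA as a main effect took at most 8.48% (Casp8). Its interactions with type, restoration and line were not split out and fall in the remainder, which was 11.4% for Casp8. The total spread differed widely, from an SD of 0.192 log2 for Casp8 to 2.10 log2 for Fas.

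**Figure D4:**
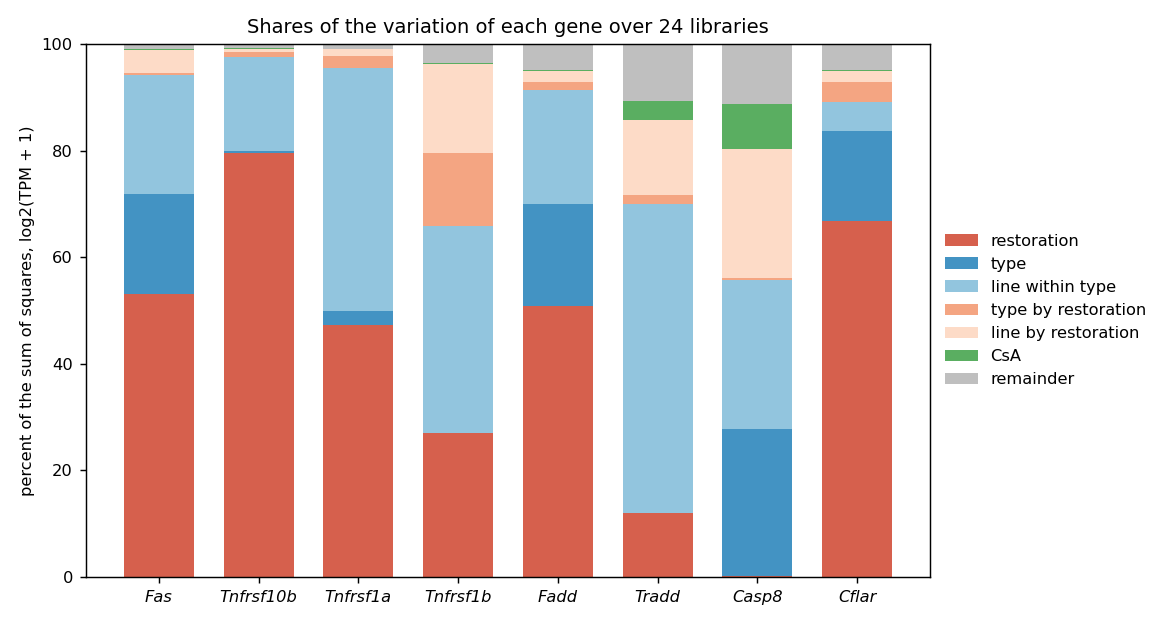
Percent of the sum of squares of log2(TPM + 1) over 24 libraries that falls to restoration, type, line within type, their interactions, CsA and the remainder, for each of 8 genes. Restoration takes 79.6% for Tnfrsf10b and 0.086% for Casp8, and the line takes 58.1% for Tradd. Interactions of CsA are part of the remainder.

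Likeness was measured as Pearson's r of log2(TPM + 1) over the 24 libraries, in which the 4 libraries of a line share their line and all share the treatments, so r is a description. Fas was most like Pltp (0.94), Pced1a (0.94) and Fam53b (0.93), and Tnfrsf10b most like Psrc1 (0.97), Ak1 (0.95) and Dennd2c (0.95). Cflar was most like Fam13b (0.96), Mctp2 (0.94) and Ptp4a3 (0.93). The best values for Casp8 were lower, with Gcc2 (0.81), Pex19 (0.79) and Zfp710 (0.78). Among the 8 genes themselves Fas and Tnfrsf1a stood at 0.84, Tnfrsf10b and Tnfrsf1a at 0.81 and Fas and Fadd at -0.80, while Casp8 and Cflar stood at 0.38.

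The wider pathway was read from 50 further genes, of which 47 were tested: ligands, other receptors of the family, parts of the receptor complexes, regulators of the death-inducing complex, effectors, and NF-kappaB genes. On restoration 6 of 47 were called higher in Type D (6.93% of all genes called in either direction) and 2 in Type V (5.29%), and 0 lower in either. Among those in Type D were Eda2r, a receptor gene and known p53 target (3.96 log2, adjusted p 0.00917), Tnfrsf23, a decoy receptor gene for TRAIL (2.19, 0.00470), and Pea15a, whose product binds FADD (1.88, 0.000753). In Type V they were Eda2r (3.66, adjusted p 0.0181) and Dffb, which encodes the nuclease that cuts DNA in apoptosis (1.48, 0.000836). The study had placed Eda2r, Tnfrsf23 and Pea15a in modules chosen on these libraries, and Tnfrsf23 has close paralogs, so its reads may be split.

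By role, 0 of 3 tested ligands passed an adjusted p of 0.05 in Type D, and 2 of 10 receptors, 1 of 15 complex genes, 1 of 6 regulators, 2 of 6 effectors and 2 of 7 NF-kappaB genes (Rela and Chuk) passed, all higher. These are 8 of 47 genes, where 12.9% of all genes passed. In Type V it was 1 receptor and 2 effectors and 0 in the other roles, or 3 of 47, where 9.95% of all genes passed. With the block 22 of 47 passed higher and 2 lower in Type D (45.3% of all genes), and 18 higher and 1 lower in Type V (40.6%). Over the 47 genes the median change was 0.26 log2 (Type D) and 0.22 log2 (Type V).

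Between the types, 4 of 47 were called in Control (8.83% of all genes) and 7 of 47 in Restored (9.44%). As above, p-values between types may be too small in this fit without the block. In Control 1 was called higher in Type D, Tnfrsf21, a death domain receptor gene (2.44 log2, adjusted p 3.71e-07), and 3 lower, among them Tnfrsf11b, a secreted decoy receptor gene (-5.31, 0.00562), and Bid, which links caspase-8 to mitochondria (-1.50, 0.00131). In Restored Tnfrsf21 (1.94), Pea15a (1.55) and Tnfaip3, a brake on NF-kappaB (1.47, adjusted p 0.0320), were higher and Tnfrsf11b lower (-6.56). The restoration change of Pea15a was 1.49 log2 larger in Type D, a difference that did not pass without the block (adjusted p 0.926) and passed with it (0.0362). The study had used Tnfrsf21 in its Type D signature, which was chosen on these libraries.

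**Figure D5:**
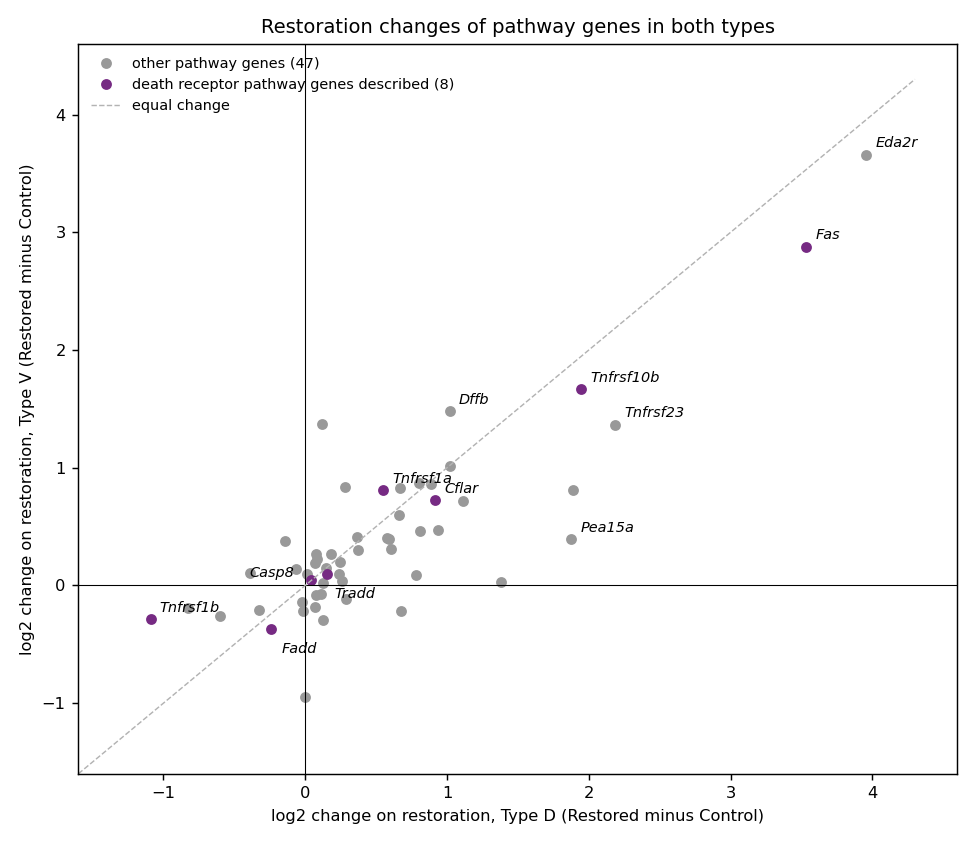
Change on restoration in Type D (horizontal) against Type V (vertical), as log2 differences of log2(TPM + 1) group means, for the 8 genes described (purple) and 47 other pathway genes (grey); the dashed line marks equal change. Eda2r, Fas and Tnfrsf10b lie at the upper right, just below the line, Pea15a lies further below it, and Tnfrsf1b lies at -1.09 and -0.28.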

How the data were processed

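RNA-seq of 24 libraries from 6 cell lines was used. The authors deposited gene-level TPM, which sum to 1000000 in each library. Their methods describe stranded poly-A, single-end libraries and name Kallisto and HISAT2, and the submitters' processing notes name HISAT2, mm10 and GRCm39, without saying which made this table. TPM holds no counts, so no count test, depth or counting interval was possible, and the number of lines limits precision.

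Values were taken as log2(TPM + 1). Genes at 1 TPM or more in at least 3 libraries were kept (14104 of 25239), and 11 comparisons were fitted with limma 3.58.1 (R 4.3.3, lmFit, contrasts and eBayes with a trend) on 8 group means, with Benjamini-Hochberg adjustment over all genes tested. The threshold was an adjusted p of 0.05, with a change of at least 1 log2 for a call. The script was tested on simulated data. Other values used Python 3.11.15, numpy 2.4.6, scipy 1.17.1, pandas 2.3.3 and matplotlib 3.10.9. Lines come from separate tumors, so replicates are biological. Line names begin with 4711 or 4716 in both types, which the labels do not explain, and this prefix as a covariate was also tried.

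The labels tie the 4 libraries of a line together. Deviations from the group means correlated at 0.60 to 0.93 between libraries of 1 line and at -0.67 to 0.04 between lines of a type, so the line was also fitted as a block, fixed or random (consensus correlation 0.736). The fixed block cannot test levels between types, which differ by line. Without a block the libraries of a line count as independent, so p-values between types may be too small.

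The genes, the wider pathway list and the tests were chosen with earlier results of these data known. Named genes are the 9 listed ones, up to 4 called genes of the wider pathway with the largest change per comparison, and the 3 most correlated genes of each member shown, while other genes named were chosen after their values were seen. Some genes that these rules select are not reported here. Alternatives covered the pseudocount (0.1), the filter (none, 20066 genes, or 5 TPM, 11785 genes), quantile and median-ratio scaling (factors 0.887 to 1.12), the block, the samples fitted and each line left out. Promoter windows come from RefSeq.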

Additional observations from a re-analysis of the deposited data

Results flagged for a closer look

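The response of Fas to CsA in restored cells ran in opposite directions in the types. In Type D it was 0.16 log2 higher with CsA (SD 0.0717, higher in 3 of 3 lines), and in Type V it was -0.14 log2 (SD 0.0386, lower in 3 of 3 lines). Moving the same way in all 3 lines was common in this comparison (Type D 38.6% of all genes, Type V 33.2%). Fas was picked out for its opposite directions in the types, and the share of all genes with such a pattern was not counted. Both differences had a limma adjusted p of 1, and the difference between the types was not tested.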

How the results depend on the processing

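No value of the 8 genes that was called changed sign under any of the 16 alternatives. The calls of members that moved follow. On restoration 2 were called in Type D (1 to 3 with a line left out, 3 in a fit to the compared groups and 3 at an adjusted p alone) and 1 in Type V (0 to 2 with a line left out, 0 in a fit to the compared groups, 2 at an adjusted p alone). Under CsA 2 were called in Type D (1 to 4 with a line left out, 1 after quantile normalization and 1 after median-ratio scaling) and 1 in Type V (0 to 1 with a line left out, 0 in a fit to the compared groups). Between the types 0 were called in Control (0 to 1 with a line left out) and 0 in Restored (1 at an adjusted p alone). The cause of these shifts was not tested, except that a fit to fewer groups has fewer samples.

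With the cell line as a replicate block, fixed or random, the members called on restoration were 3 in Type D and 2 in Type V, and under CsA 4 and 2. Pairing by line changed no count of members called in the CsA comparisons or in the difference of restoration. Fas on restoration in Type V was called without line 4716-10 (3.40 log2, adjusted p 0.0162), and Fas under CsA in Type D without line 4711-11 (0.00555) or 4716-10 (0.00701) and in a fit to the compared groups (0.0102). Of the 47 wider pathway genes, the block took the calls on restoration in Type V from 2 to 5 (also under CsA). Those for the difference of restoration went from 0 to 3, where the share of all genes went from 0.0284% to 2.44%. The random block took those between types in Control from 4 to 7, where the share of all genes went from 8.83% to 11.3%. A fit to the compared groups took the Type V calls to 0 on restoration, with or without CsA, and those between types in Restored from 7 to 3, and leaving out a Type D line took those on restoration in Type D from 6 to between 2 and 3. With 3 lines per group and no counts, a change of low genes could be missed.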
